A study of Homo sapiens with 6 samples.

Results

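The ETS transcription factors described here are 10 genes, chosen by symbol from the 12982 genes of the deposited expression table: ETS1, ETS2, ETV4, ETV5, ETV6, ELF1, ELF3, ELF4, EHF and ELK1. All 10 were in the table. The set was put together with their values in this comparison known, so their changes are given as a description without a p-value. The data are RNA sequencing of SW480 cells, a cell line established from a human colorectal adenocarcinoma, which were kept for 24 h with the solvent DMSO (3 libraries) or with MPM-1, a synthetic fluorescent probe made for mitochondria and called WT4 in the labels (3 libraries). The study used this experiment to ask which genes and signaling pathways change in colon cancer cells treated with MPM-1. Both groups were of the same line, carried the genotype label WT and were grown in DMEM with fetal bovine serum, and no dose of MPM-1 is named for this experiment in the sources used here. SW480 is a single tumor line, and the labels do not say whether the 3 libraries of a group came from separate cultures. The errors and p-values below therefore measure the spread between these libraries only. Genes outside the 10 were also chosen with earlier results of these data known, so their p-values are not independent evidence.

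ETS factors share a DNA-binding domain, the ETS domain, which contacts a short GGAA core in DNA, so that different members can occupy overlapping sites and are set apart by flanking bases, by partner proteins and by how much of each is present in a cell. Many of them stand at the end of the RAS-ERK cascade, in which the kinase ERK phosphorylates ETS proteins and changes their activity. In intestinal epithelium the epithelial members ELF3 and EHF are linked to differentiation, while ETV4, ETV5, ETS1 and ETS2 are best known in colorectal tumors for driving genes of growth, invasion and matrix degradation.

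The 6 libraries held between 31733667 and 40269820 counts, so that 3 counts, the limit that a count of 0 allows, corresponded to 0.0695 to 0.0985 CPM (TMM-scaled counts, on the scale of a library of common size). Such limits cover counting error only. The lowest count of any of the 10 genes was 58, above this limit. All 10 colon epithelial markers examined were in the table, with a summed FPKM of 4869 to 5591 in DMSO and 6761 to 7230 after MPM-1. FPKM is a level that the authors scaled for length and depth. The keratins KRT8, KRT18 and KRT19, at means of 2124, 1234 and 1206 FPKM in DMSO, made up most of this sum. At an adjusted p under 0.05, 4 of the 10 markers were higher after MPM-1 (all genes 27.7%), these keratins among them. Another 5 were lower (all genes 28.8%), and the median log2 fold change of the 10 was −0.23. The endothelial markers (0 of 5) and leukocyte markers such as PTPRC, CD3D, CD3E, MS4A1 and LYZ were not among the genes of the table. Of the 8 leukocyte markers only CD68 and CD14 were there, summing to 36.9 to 50.4 FPKM in DMSO and 70.8 to 74.7 FPKM after MPM-1. These 2 genes moved apart, with CD68, which is not confined to leukocytes, at a log2 fold change of 1.08 and CD14 at −1.34. Of the 5 fibroblast markers only COL1A1 and PDGFRB were there, summing to 0.760 to 0.919 FPKM in DMSO and 0.310 to 0.440 FPKM after MPM-1 (COL1A1 −2.07 on the log2 scale). The part of these markers in the changes below was not tested. In bulk RNA, fewer cells that express a gene and less of its RNA per cell cannot be told apart.

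MPM-1 was accompanied by higher ETS1 and ELF3 RNA, moderately higher ELF4 and ETV6 RNA and slightly lower ELF1 RNA. Fold changes are MPM-1 over DMSO on TMM-scaled counts, a gene is called a DEG at an adjusted p under 0.01 with a log2 fold change of 1 or more in either direction, and rose or fell is used for an adjusted p under 0.05 (edgeR's quasi-likelihood test, Benjamini-Hochberg over all 12982 genes). Of the 10 genes, 2 were DEGs with higher RNA, against 5.58% of all genes tested, and 0 were DEGs with lower RNA, against 8.75% of all genes. At the looser threshold 4 of the 10 rose (all genes 27.7%) and 1 fell (all genes 28.8%), while 5 were not called. The CPM of the 3 MPM-1 libraries lay wholly above those of DMSO for 4 genes (all genes 31%) and wholly below for 2 genes, ELF1 and ETV4 (all genes 33.3%). The median log2 fold change was 0.05 over the 10 genes and −0.03 over all genes. With scaling by library size alone the median of all genes moved to −0.18 and that of the 10 genes to −0.10, and then 3 of the 10 fell instead of 1.

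**Figure D1:**
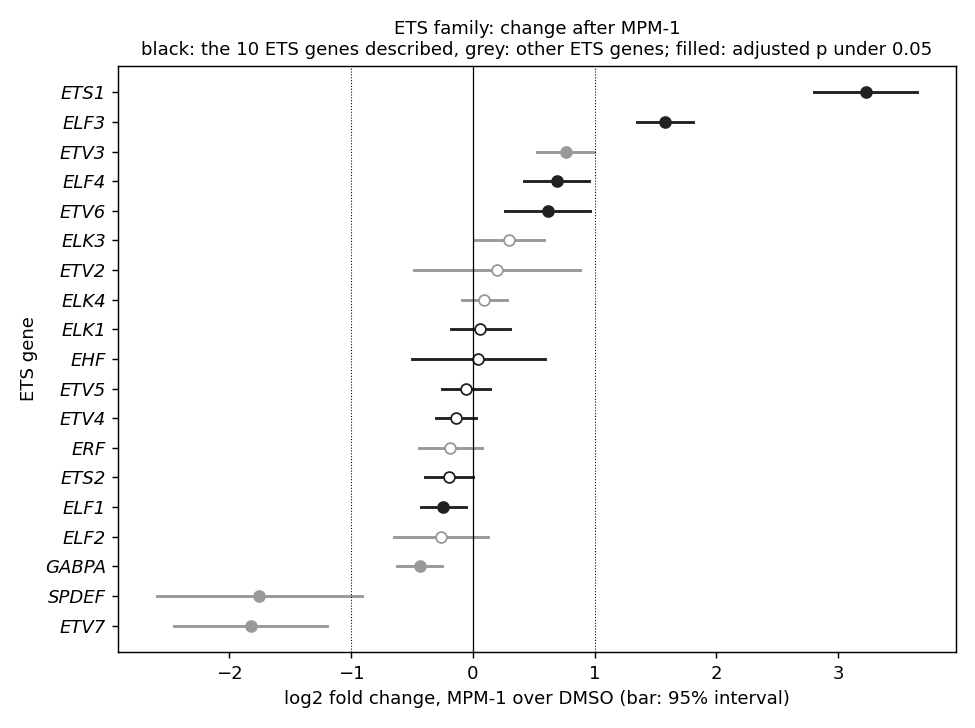
Log2 fold change of RNA, MPM-1 over DMSO, for the 19 ETS genes in the table, each point an estimate from 3 libraries per group and each bar its 95% interval. Black marks the 10 genes described here and grey the other 9, filled points have an adjusted p under 0.05, and ETS1 at 3.23 and ELF3 at 1.58 stand to the right of all others.

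ETS1 and ETS2 form the ETS subfamily, named after the founding oncogene of the family, and both carry a site that ERK phosphorylates. ETS1 (ENSG00000134954, chromosome 11, 128458761 to 128587558, minus strand, GRCh38) had 58, 64 and 61 counts in DMSO and 512, 393 and 509 counts after MPM-1. The groups lay far apart, with the lowest MPM-1 library several times above the highest DMSO library. In CPM the mean rose from 1.59 ± 0.148 to 14.9 ± 2.02 (SD, n = 3 each), a log2 fold change of 3.23 (SE 0.19, 95% interval 2.81 to 3.65) or 9.38-fold. This change lay at percentile 99.7 of all genes tested, and the DEG call held in 15 of 15 alternative settings. Among these, the fits with a minimum mean of 1 FPKM included ETS1 only through its MPM-1 libraries, so they add no independent support.

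The level of ETS1 remained low per transcript length. Its FPKM was 0.339, 0.294 and 0.305 in DMSO and 2.96, 2.87 and 2.70 after MPM-1, so that it moved from percentile 1.96 to percentile 31.4 of all genes in the table. On the log2(FPKM + 1) scale, which understates changes of genes at such levels, its difference was 1.55.

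ETS2 (ENSG00000157557, chromosome 21, 38805307 to 38824955, plus strand) had 2317, 3179 and 2625 counts in DMSO and 1697, 1882 and 2235 after MPM-1. Its log2 fold change was −0.19 (SE 0.09, 95% interval −0.39 to 0.0046), which was not called, and the CPM of the groups overlapped. Scaling by library size alone (−0.34) and the 3 fits on log2 FPKM (−0.31 to −0.30) called it lower. The ratio of ETS2 to ETS1 in FPKM was 61.4 ± 7.26 in DMSO and 5.42 ± 0.670 after MPM-1 (SD, n = 3 each), with ETS1 the gene that moved more.

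**Figure D2:**
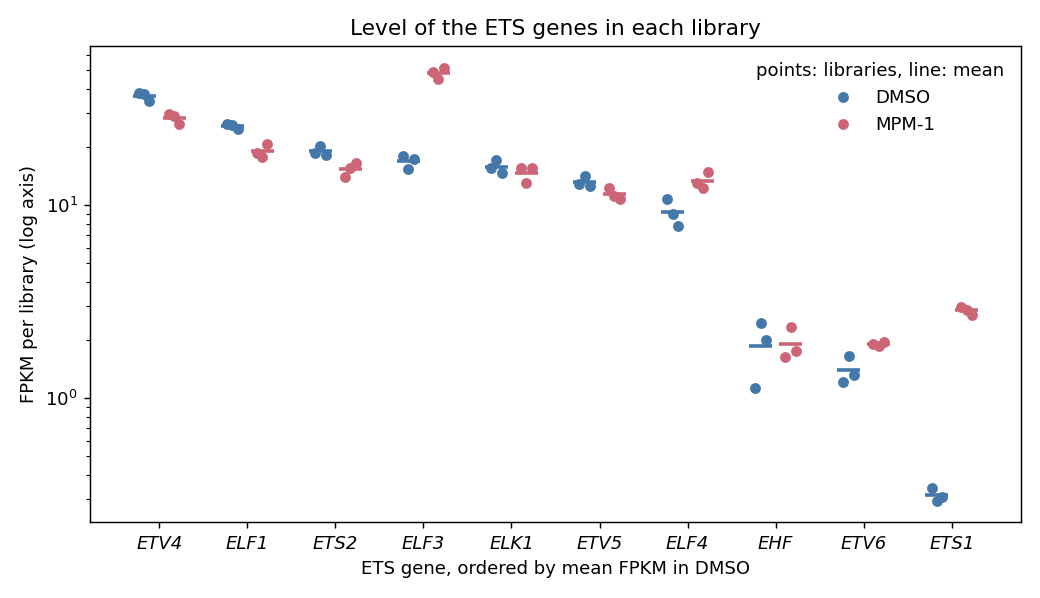
FPKM of the 10 ETS genes in each library on a log axis, with genes ordered by their mean in DMSO, DMSO libraries in blue, MPM-1 libraries in red and a line at the mean of each group. The DMSO and MPM-1 points stand apart furthest for ETS1 (0.313 against 2.84 FPKM on average) and ELF3 (16.9 against 48.5 FPKM), while those of EHF and ELK1 overlap.

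ELF3 and EHF belong to the ESE subfamily of epithelium-specific ETS factors. ELF3 is an epithelial regulator that is also induced by inflammatory signals, and EHF is a related factor of glandular and intestinal epithelium. ELF3 (ENSG00000163435, chromosome 1, 202007945 to 202017188, plus strand) had 1978, 2101 and 2044 counts in DMSO and 4677, 4555 and 5873 after MPM-1. Every MPM-1 library stood above every DMSO library, and replicate 3 of MPM-1 was the highest. The CPM rose from 53.3 ± 5.92 to 159 ± 14.2, a log2 fold change of 1.58 (SE 0.10, 95% interval 1.35 to 1.81) or 2.98-fold. The call as a DEG held in 15 of 15 alternatives, with values from 1.43 to 1.67. GENCODE annotates 664 exonic bases of ELF3 that are shared with the antisense gene ELF3-AS1 and with AL691482.3, and neither of these is in the table. Strand was not stated for the counting, so reads from these bases cannot be assigned to one gene.

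EHF (ENSG00000135373, chromosome 11, 34621093 to 34661057, plus strand) had 118, 255 and 228 counts in DMSO and 154, 191 and 149 after MPM-1. In CPM it stood at 3.58, 5.90 and 5.72 in DMSO and at 5.05, 6.21 and 4.44 after MPM-1, so that DMSO replicate 1 was the lowest library, MPM-1 replicate 2 the highest and the groups overlapped. Its log2 fold change was 0.04 (SE 0.24, 95% interval −0.50 to 0.59), the widest of the 10 genes. The sign turned to −0.11 with library size alone, to −0.15 without DMSO replicate 1 and to −0.07 without MPM-1 replicate 2. In FPKM, ELF3 stood at 10.3 ± 5.05 times the level of EHF in DMSO and at 26.3 ± 5.94 times after MPM-1.

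The start regions of ELF3 and EHF are shown because the core that ETS proteins bind is itself part of them. In the RefSeq promoters of GRCh38.p14, the 250 bases before the start of ELF3 hold 2 matches of GGAA on either strand and those of EHF hold 1. The ELF3 window lies inside the span of the gene given above, where it overlaps 2 exons of ELF3 in GENCODE, and all 250 of its bases are annotated as UTR. The EHF window also lies inside the span of its gene given above, but overlaps none of the GENCODE exons of EHF. The lines give 30 bases of the plus strand around each match, 5′ to 3′, with the core in capitals (TTCC where the core is on the minus strand).
ELF3, chr1:202010402-202010431, core 172 bases before the start: agccgggcctgatTTCCcagcactgcctgc
ELF3, chr1:202010486-202010515, core 88 bases before the start: agtctaaaggccaGGAAatcccctccatcc
EHF, chr11:34624068-34624097, core 176 bases before the start: gttgtggttttaaGGAActcaatctaaagc
A GGAA core occurs in 92.7% of the 35116 promoters of this table, with a mean of 2.93 matches, so its presence sets neither gene apart. The longer letters CCGGAAGT, held by 3.42% of promoters, were in neither window. The window of ELF3 also holds TATAAA 34 bases before the start, letters found in 10.7% of promoters, and that of EHF does not. All these letters were searched on both strands, and TTCC and GGAA are the same match read from either side.

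ELF1 and ELF4 are close relatives in the ELF subfamily, known mainly from lymphocytes but widely expressed, and they moved in opposite directions. ELF4 (ENSG00000102034, chromosome X, 130064874 to 130110716, minus strand), a factor linked to quiescence and to innate immune genes, had 1392, 1549 and 1239 counts in DMSO and 1821, 1629 and 2122 after MPM-1. Its CPM was 36.4 ± 5.57 in DMSO and 58.6 ± 5.21 after MPM-1, and no library of one group reached the other. ELF4 rose by a log2 fold change of 0.69 (SE 0.12, 95% interval 0.42 to 0.96), below the size required of a DEG, and the call was kept in 15 of 15 alternatives.

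ELF1 (ENSG00000120690, chromosome 13, 40932028 to 41061440, minus strand) had 2923, 3747 and 3296 counts in DMSO and 2214, 2052 and 2648 after MPM-1. The CPM libraries did not overlap, at 82.7 to 88.6 in DMSO and 66.7 to 78.9 after MPM-1. Its log2 fold change was −0.24 (SE 0.08, 95% interval −0.43 to −0.06), and the call was lost when DMSO replicate 1 (−0.22) or 2 (−0.24) or MPM-1 replicate 1 (−0.22) or 2 (−0.16) was left out. ELF1 shares 167 exonic bases with WBP4 on the opposite strand. In FPKM the ratio of ELF1 to ELF4 was 2.84 ± 0.392 in DMSO and 1.42 ± 0.0280 after MPM-1.

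ETV4 and ETV5 are PEA3 factors, which act downstream of receptor tyrosine kinases and are overexpressed in many carcinomas. ETV4 (ENSG00000175832, chromosome 17, 43527844 to 43579620, minus strand) had the highest FPKM of the 10 genes in DMSO, at 37.9, 37.5 and 34.8, against 29.9, 28.9 and 26.4 after MPM-1. The groups did not overlap on this scale. On TMM-scaled counts the groups were also apart but closer, at 71.1 to 78.0 CPM in DMSO and 65.4 to 69.2 CPM after MPM-1, and the log2 fold change of −0.14 (SE 0.07, 95% interval −0.31 to 0.02) was not called. It was called lower with library size alone (−0.29) and in the 3 fits on log2 FPKM (−0.37 to −0.36). ETV4 shares 68 exonic bases with DHX8 on the opposite strand.

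ETV5 (ENSG00000244405, chromosome 3, 186046308 to 186110318, minus strand) had 1741, 2417 and 1990 counts in DMSO and 1702, 1507 and 1614 after MPM-1. Its CPM overlapped between groups, and the log2 fold change of −0.05 (SE 0.09, 95% interval −0.25 to 0.14) was not called under any of the 15 alternatives. Its exons overlap those of DGKG on the same strand by 164 bases, and DGKG had 591 counts in all 6 libraries together. The ratio of ETV4 to ETV5 in FPKM was 2.80 ± 0.153 in DMSO and 2.49 ± 0.0764 after MPM-1.

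ETV6, a transcriptional repressor of the TEL subfamily known from leukemia fusions, and ELK1, a ternary complex factor that binds DNA with SRF and is activated by ERK, were the remaining genes. ETV6 (ENSG00000139083, chromosome 12, 11649854 to 11895402, plus strand) had 240, 400 and 292 counts in DMSO and 388, 366 and 400 after MPM-1. The raw counts overlapped through DMSO replicate 2, which was the deepest library and also had the highest ETV6 CPM of its group. The CPM of the groups did not overlap, at 7.28, 9.26 and 7.33 in DMSO and 12.7, 11.9 and 11.9 after MPM-1. ETV6 rose by a log2 fold change of 0.61 (SE 0.16, 95% interval 0.26 to 0.96), and the call was lost in 2 fits on log2 FPKM, at 0.29 and 0.44.

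The RefSeq window of ETV6 is shown with its 4 GGAA cores, in a stretch with 74.4% G and C. Over all promoters the mean is 2.93 matches and the median 3, and the windows of ETV3 and ETV2 also hold 4. This count therefore does not set ETV6 apart. Capitals mark the core as before, on the plus strand of GRCh38.p14, 5′ to 3′.
ETV6, chr12:11649533-11649562, core 128 bases before the start: ccgctacccgggtTTCCtccgcccgcgccc
ETV6, chr12:11649582-11649611, core 79 bases before the start: gcgcagcttttatTTCCccgatgccgggct
ETV6, chr12:11649616-11649645, core 45 bases before the start: cccgagcttttatTTCCtggtggctccttt
ETV6, chr12:11649644-11649673, core 7 bases before the start: ttaagaggcagagctcagtgctgGGAAttc
The RefSeq start lies 180 bases from the nearest GENCODE start of ETV6. Binding of ETS proteins to these letters was not measured.

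ELK1 (ENSG00000126767, chromosome X, 47635521 to 47650604, minus strand) had 1309, 1825 and 1441 counts in DMSO and 1348, 1085 and 1469 after MPM-1. The CPM libraries overlapped, and MPM-1 replicate 2 was the lowest of all 6. Its log2 fold change was 0.06 (SE 0.11, 95% interval −0.18 to 0.31), with the sign turned to −0.09 by library size alone and to −0.10 in the 3 fits on log2 FPKM.

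Ranked by FPKM, ETV4 came first in DMSO, followed by ELF1, ETS2, ELF3, ELK1, ETV5, ELF4, EHF, ETV6 and ETS1. In this order the libraries of ELF3 and ELK1 overlapped, as did those of EHF and ETV6, and the other neighbors did not. After MPM-1 the order was ELF3, ETV4, ELF1, ETS2, ELK1, ELF4, ETV5, ETS1, ETV6 and EHF. Here ETS2 overlapped with ELK1, ELK1 with ELF4, and ETV6 with EHF. ELF3 thus moved from the fourth place to the first, and ETS1 left the last place for the eighth.

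The summed FPKM of the 10 genes was 143, 144 and 134 in DMSO and 159, 151 and 163 after MPM-1. The share of ELF3 in this sum was 12.1 ± 1.25% in DMSO and 30.8 ± 0.878% after MPM-1 (SD, n = 3 each), and the groups were far apart. The share of ETV4 was 26.6%, 26.1% and 26.0% in DMSO and 18.8%, 19.2% and 16.2% after MPM-1. ELF1 made up 18.4 ± 0.236% in DMSO and 12.1 ± 0.552% after MPM-1, and ETS1 0.223 ± 0.0172% and 1.81 ± 0.131%. Since the shares add up to the same total, a larger share of ELF3 lowers the others by itself. In FPKM, ELF3 stood at 0.461 times ETV4 in DMSO and at 1.72 times ETV4 after MPM-1.

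**Figure D3:**
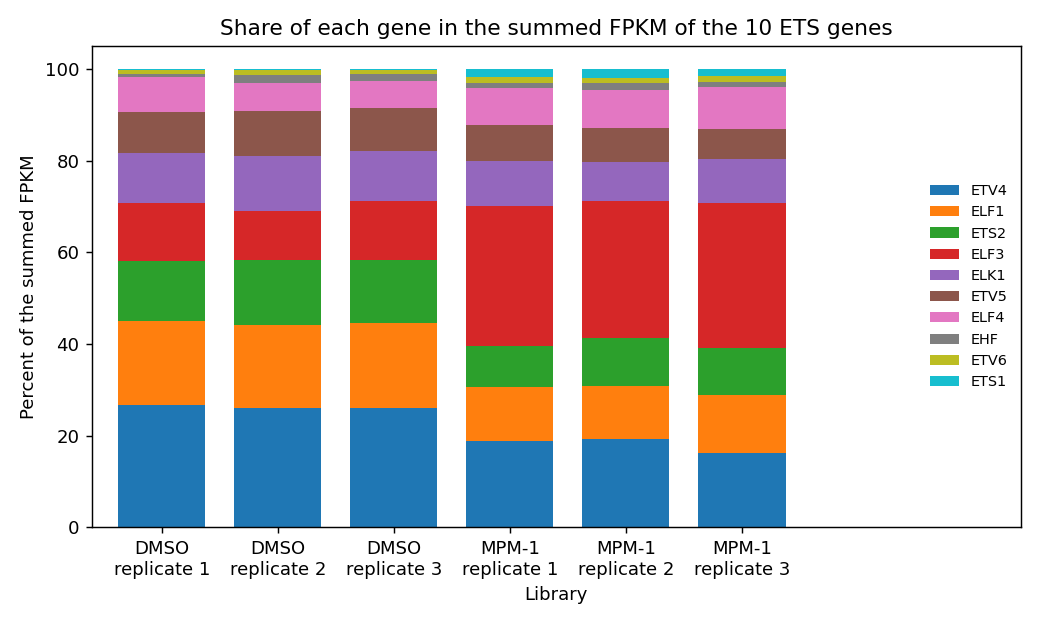
Share of each of the 10 ETS genes in their summed FPKM, in percent, as stacked bars for the 3 DMSO and 3 MPM-1 libraries. The red segment of ELF3 widens from a mean of 12.1% in DMSO to 30.8% after MPM-1, while the blue segment of ETV4 narrows.

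The human ETS family numbers 28 genes, and 9 more of them were in the table. Of these 9, 1 rose (ETV3) and 3 fell (ETV7, SPDEF and GABPA), and the falls of ETV7 and SPDEF made them DEGs. Over all genes tested, 27.7% rose and 28.8% fell at this threshold. ETV7, the nearest relative of ETV6, had 101, 162 and 125 counts in DMSO and 27, 24 and 38 after MPM-1, a log2 fold change of −1.82 (SE 0.28, edgeR adjusted p = 0.0004615). Its direction was thus opposite to that of ETV6. SPDEF, a factor of secretory epithelial cells such as goblet cells, had 86, 92 and 77 counts in DMSO and 13, 31 and 18 after MPM-1, a log2 fold change of −1.75 (SE 0.38, edgeR adjusted p = 0.00324). In both genes the highest MPM-1 library was below the lowest DMSO library. The DEG call held in 15 of 15 alternatives for ETV7 and in 9 of 13 for SPDEF, which lost it without DMSO replicate 1 (−1.63) or 2 (−1.78), without MPM-1 replicate 3 (−1.61) and on log2(FPKM + 1) with no filter (−0.75), and remained past an adjusted p of 0.05 in each.

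ETV3, a repressor, rose by a log2 fold change of 0.76 (SE 0.11, edgeR adjusted p = 0.0002405). GABPA, which activates nuclear genes of mitochondrial proteins together with GABPB subunits, fell, with a log2 fold change of −0.44 (SE 0.08, edgeR adjusted p = 0.001598), and its exons share 413 bases with ATP5PF on the opposite strand. ELK3, ELK4, ELF2, ERF and ETV2 were not called, with log2 fold changes of 0.30, 0.09, −0.26, −0.19 and 0.20. Of these, ELK3 was called higher by DESeq2 (0.31) and without MPM-1 replicate 1 (0.43), and ERF was called lower in the 3 fits on log2 FPKM and with library size alone. The summed FPKM of all 19 ETS genes was 187 ± 7.91 in DMSO and 198 ± 6.33 after MPM-1. ELF5, ERG, ETV1, ETV3L, FEV, FLI1, SPI1, SPIB and SPIC were not analysed here.

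PEA3 proteins are kept in check by the ubiquitin ligase of COP1, DET1 and DDB1, which degrades them, and by the repressor CIC with its partners ATXN1 and ATXN1L, which represses their genes. Of these 6 regulators, 1 rose, 2 fell and 3 were not called, with a median log2 fold change of −0.03, against 27.7% of all genes that rose and 28.8% that fell. ATXN1 rose by 0.91 on the log2 scale (SE 0.12, edgeR adjusted p = 0.000184) and DDB1 fell, at −0.34. DET1 had 36, 108 and 93 counts in DMSO and 26, 6 and 0 after MPM-1, a log2 fold change of −2.52 (SE 0.82, edgeR adjusted p = 0.0251). The MPM-1 libraries of DET1 differed widely among themselves, and its call was lost with DESeq2 (−2.48), without DMSO replicate 2 (−2.31) or 3 (−2.38) and without MPM-1 replicate 2 (−2.22). Its value reached −4.34 without MPM-1 replicate 1 and −1.90 without MPM-1 replicate 3. CIC itself stood at 0.09 and COP1 at 0.03, neither of them called.

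Among proteins that work with ETS factors, 15 of 16 listed genes were in the table, of which 4 rose, 4 fell and 7 were not called (median 0.05), against 27.7% and 28.8% of all genes that rose and fell. RUNX1, which binds DNA next to ETS1, rose by 0.97 on the log2 scale (SE 0.14, edgeR adjusted p = 0.000282). RUNX2, another such partner, stood at 0.40 and CBFB, the common subunit of both, at 0.34, and each of these calls was lost under 8 or more of the 15 alternatives. GABPB2, a partner of GABPA, had a log2 fold change of −1.16 (SE 0.24, edgeR adjusted p = 0.00239) and was the 1 DEG of the list, a call that held in 9 of 13 alternatives and was lost without DMSO replicate 2 (−1.06) or 3 (−1.10), without MPM-1 replicate 3 (−1.13) and on log2(FPKM + 1) with no filter (−0.35). GABPB1, another GABPB subunit, rose by 0.29 on the log2 scale (SE 0.09) and was not a DEG. It stood at 11.4 FPKM in DMSO and 14.6 FPKM after MPM-1, against 0.574 and 0.233 FPKM for GABPB2. The corepressor SIN3A (−0.60) and the coactivator EP300 (−0.45) fell. SRF, the partner of ELK1, was not called at 0.23.

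The RAS-ERK cascade that feeds the ETS factors held 14 listed genes, of which 8 rose, 3 fell and 3 were not called, with a median log2 fold change of 0.23, while 27.7% of all genes rose and 28.8% fell. No gene of the cascade was a DEG, as were 5.58% (higher) and 8.75% (lower) of all genes. Among those that rose were the kinase BRAF (0.65) and the adaptor SHC1 (0.44). The exchange factor SOS1 (−0.33), the adaptor GRB2 (−0.30) and the kinase MAP2K2 (−0.24) fell, but each of these calls was lost when 1 of several libraries was left out. These are levels of RNA, and the phosphorylation of ERK was not measured in these libraries. By Western blot, the study reports less phosphorylated ERK after MPM-1, with total ERK unchanged or slightly higher.

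Genes that follow ERK activity went in different directions. Of 14 listed, 6 rose, 2 fell and 6 were not called (median 0.13), against 27.7% of all genes that rose and 28.8% that fell, so that 57.1% of the list was called in either direction and 56.5% of all genes. DUSP5, a phosphatase of ERK in the nucleus, rose by 1.41 on the log2 scale, IER3 by 1.36 and the AP-1 subunit FOSL1 by 1.03, all of them DEGs. The DEG call of DUSP5 and IER3 held in 15 of 15 alternatives, and that of FOSL1 in 7 of 15, since its value was below 1 in the 3 fits on log2 FPKM (0.86 to 0.87), with library size alone (0.89) and without DMSO replicate 2 (0.98) or 3 (0.92) or MPM-1 replicate 2 (0.99) or 3 (0.97). DUSP6, the cytoplasmic phosphatase of ERK, had 4890, 7951 and 6989 counts in DMSO and 653, 1979 and 1648 after MPM-1, a log2 fold change of −1.91 (SE 0.31, edgeR adjusted p = 0.0006192). All 3 MPM-1 libraries of DUSP6 were below those of DMSO, with MPM-1 replicate 1 the lowest. SPRED2, an inhibitor of the cascade, fell (−0.42), while the inhibitors SPRY2 (0.01) and SPRY4 (0.02) and the transcription factor EGR1 (0.25) were not called.

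A list of 16 genes described elsewhere as targets of ETS proteins was chosen with the rise of LCN2 already known, so its counts are no independent evidence of a direction. Of its 10 genes in the table, 8 rose, 1 fell and 1 was not called, with a median log2 fold change of 1.24, and 5 were DEGs with higher RNA. The shares over all genes were 27.7% (rose), 28.8% (fell) and 5.58% (DEGs with higher RNA). LCN2, an iron-binding protein of innate immunity, had 140, 149 and 112 counts in DMSO and 17721, 17437 and 17681 after MPM-1, a log2 fold change of 7.32 (SE 0.15). The collagenase MMP1 had 53, 52 and 70 counts in DMSO and 2110, 2420 and 2976 after MPM-1, a log2 fold change of 5.70. The stromelysin MMP10 had 0, 1 and 6 counts in DMSO and 126, 111 and 112 after MPM-1, and its fitted value of 5.86 rests on few control counts and ranged from 5.39 (without DMSO replicate 1) to 7.79 (without DMSO replicate 3). The lowest total of any gene in the table was 115 counts, which MMP10 reached only through its MPM-1 libraries. Its presence in the table, and so its part in the counts of this list, depended on its rise. The urokinase receptor PLAUR rose by 2.26 and urokinase itself, PLAU, by 1.57 on the log2 scale.

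Lower RNA was found for TGFBR2, a receptor of TGF-beta and a described target of ELF3 (log2 fold change −0.44, SE 0.11). MMP14, a membrane-bound matrix metalloproteinase, was not called at 0.15. Among the colon epithelial markers, 4 rose, 5 fell and 1 was not called (all genes 27.7% and 28.8%). The keratins KRT18 and KRT19 rose by 0.89 each and E-cadherin (CDH1) by 0.82 on the log2 scale, whereas the intestinal transcription factors CDX2 (−2.20) and CDX1 (−0.98) and the keratin KRT20 (−2.03) fell. EPCAM, a general epithelial marker, stood at −0.00084. The part of these markers in the changes of ELF3, EHF and SPDEF was not tested.

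**Figure D4:**
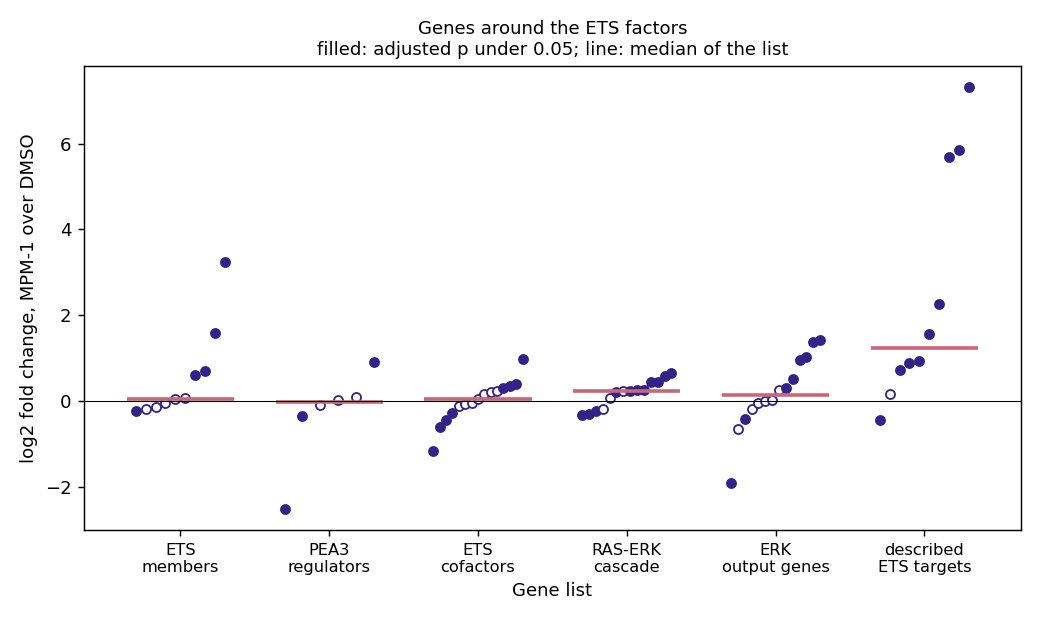
Log2 fold change, MPM-1 over DMSO, of single genes in 6 lists, the 10 ETS genes, the PEA3 regulators, the ETS cofactors, the RAS-ERK cascade, the ERK output genes and the described ETS targets, with filled points at an adjusted p under 0.05 and a red line at the median of each list. The medians lie between −0.03 and 0.23 for all lists but the described targets, whose median is 1.24. That list was chosen with the rise of LCN2 already known and includes MMP10, so its median is no independent evidence of a direction.

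The estimates of the 10 genes were compared over 15 other settings. In 6 of the 10 genes the call was the same in each of them, in 2 (ETV6 and ELF1) it was lost in some, and in 2 (ETS2 and ETV4) it was gained in some, and no called gene changed its direction. The range was 1.55 to 3.35 for ETS1, 1.43 to 1.67 for ELF3 and −0.15 to 0.17 for EHF. The fits with a minimum mean of 1 FPKM held ETS1 only through its MPM-1 libraries and add no independent support for its call.

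**Figure D5:**
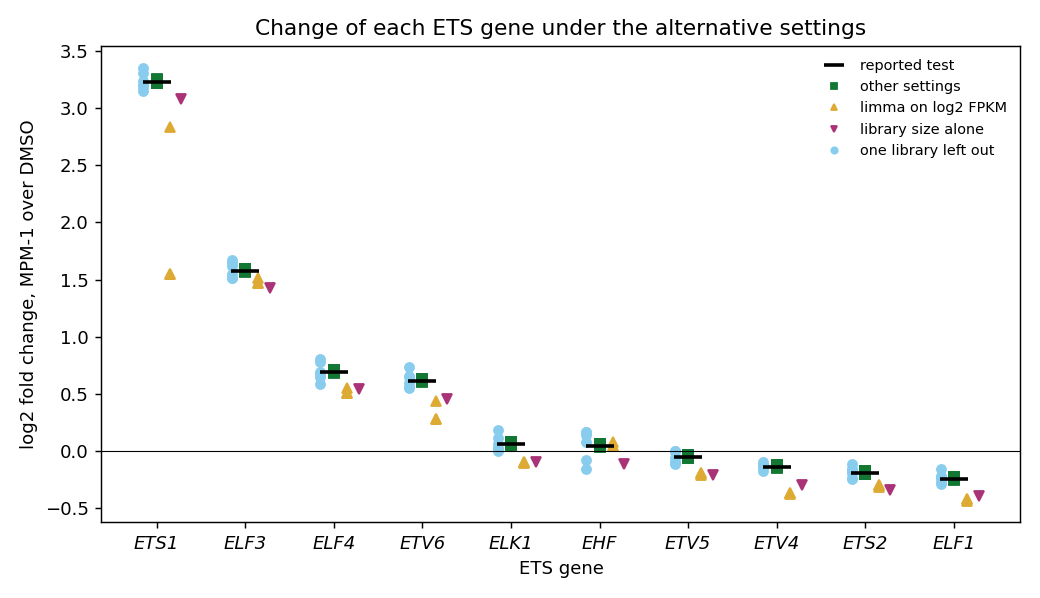
Log2 fold change of each of the 10 ETS genes under the reported test (black line) and 15 alternatives, with green squares for other count settings, yellow triangles for limma on log2 FPKM, purple triangles for library size alone and pale blue points for fits without 1 library. ETS1 and ELF3 stay above 1 in each of them, and scaling by library size alone places every gene below its black line.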

How the data were processed

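Per the labels and methods, RNA of SW480 cells treated for 24 h was extracted with TRIzol, and mRNA libraries were sequenced and analysed by a company. The authors deposited whole-number counts per gene and library, and FPKM scaled by them for length and depth, with a minimum total of 115 counts per gene. The submitters' processing notes name HISAT2, DESeq2 and the mouse build mm10, although all 12127 Ensembl identifiers are human (the other 855 are not Ensembl). Their fold-change and FDR columns were not used, and 0 per-sample columns were left unused. Coordinates and overlaps come from GENCODE (GRCh38). Sequences come from RefSeq (GRCh38.p14), matched by symbol for 15 of 19 ETS genes, with ETS1, ETV4, ETV5 and ETV7 unmatched.

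Counts were tested here with edgeR 4.0.16 (TMM, quasi-likelihood, R 4.3.3, common dispersion 0.0231) on 6 libraries without covariates, after a test on simulated data. Alternatives were DESeq2 1.42.0 (its size factors, its test), a mean of at least 50 counts, a replicate block, library size alone and scaling without mtDNA genes. Further alternatives were limma 3.58.1 on log2(FPKM + 1) with and without a minimum mean of 1 FPKM, and on log2(FPKM + 0.1) with that minimum. Each library was also left out in turn. The genes and lists were chosen with earlier results of these data known. Named were all ETS genes and, in each list, up to 3 of the largest called rises and falls. COP1, CIC, SRF, GABPB1, SPRY2, SPRY4, EGR1, PLAUR, PLAU, MMP14, EPCAM and KRT8 were added after their values were seen. Some genes that this rule names are not reported here.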

Additional observations from a re-analysis of the deposited data

How the results depend on the processing

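Without 1 library at a time, the 10 ETS genes had 0 to 1 falling gene, with 0 without DMSO replicate 1, DMSO replicate 2, MPM-1 replicate 1 or MPM-1 replicate 2, where ELF1 was lost, and the other ETS genes had 1 to 2 rising genes, with 2 without MPM-1 replicate 1, where ELK3 was gained. DESeq2's test also gave 2 rising genes among the other ETS genes. Scaling by library size alone gave 3 falling genes of the 10 and a median of −0.10, and limma on FPKM gave 3 falling genes in each of its 3 forms. These settings moved the median of all genes from −0.03 to −0.18 (library size) and to between −0.15 and −0.13 (limma). With library size alone ETS2 moved from −0.19 to −0.34 and ETV4 from −0.14 to −0.29, together with that median. The distance of both genes from the median of all genes was about the same in the reported test, where neither was called. The DEGs of all genes numbered 725 higher and 1136 lower (39.0% higher). With limma on log2(FPKM + 1) they were 351 and 716 with the filter and 364 and 743 without it (32.9% higher each), with log2(FPKM + 0.1) 445 and 1095 (28.9%), and with library size alone 537 and 1470 (26.8%). Deviations of same-numbered libraries from their group means correlated at 0.0569, 0.106 and −0.0922, and those of differently numbered libraries at −0.158 to 0.11. Deviations within a group of 3 libraries depend on each other. These values therefore cannot tell whether libraries of the same number shared a culture or batch, which the labels do not say. A fit with the replicate number as a block gave 712 and 1120 DEGs, called the same numbers of ETS genes and lost RUNX2 (0.40), SOS1 (−0.33) and MAP2K2 (−0.23). Of 42 other named genes, 34 kept their call in all alternatives, 6 lost it in some and 2 gained one, and none reversed. With 3 libraries per group, intervals for EHF and SPDEF are wide, and genes under 115 total counts were not analysed here. The cause of these shifts was not tested.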
